A study of Mus musculus with 3 samples.

Results

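Neurotransmitter receptor subunits are the proteins through which a cell senses glutamate, GABA, glycine, acetylcholine, dopamine and extracellular ATP. They were taken here as the gene rows whose symbol names a subunit of an AMPA, kainate, NMDA or delta glutamate receptor, a metabotropic glutamate receptor, a GABA-A, GABA-B or glycine receptor, a nicotinic or muscarinic acetylcholine receptor, a dopamine receptor or a P2X receptor. The symbols matched 84 of 34617 rows. The pattern uses symbols alone, though earlier results of these data were known when it was written. The Drd1a row, whose older symbol falls outside the name pattern, was listed at 0 in both libraries.

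RNA was measured in 2 libraries of sorted cells from the main olfactory epithelium of mice aged 4 weeks, with 1 library per group. The O/Tet3 library came from mice labelled OMP-tTA / tetO-Tet3-GFP, strain Fvb, in which a transactivator made under the olfactory marker protein gene switches on Tet3 joined to GFP. The mOSN library came from OMP-ires-EGFP positive cells of strain C57BL/6J, that is, mature olfactory sensory neurons marked by a reporter at the same gene. Tet3 oxidises methylated cytosine in DNA to 5-hydroxymethylcytosine, and the comparison asks which transcripts differ in neurons that overexpress it. Genotype, strain and library differ together and cannot be told apart. The labels do not give the sex or number of animals, or the signal by which O/Tet3 cells were sorted. Values of Xist, a transcript of female cells given below, differed between the libraries, so sex may differ along with genotype and strain. No difference below has a replicate check, so no p-value is given.

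As background, receptors with a built-in channel (ionotropic) open within milliseconds of binding transmitter, while G protein-coupled (metabotropic) receptors act more slowly through second messengers. Olfactory sensory neurons are stimulated by odorants at their cilia and release glutamate from axon terminals in the olfactory bulb. GABA-B and D2 dopamine receptors on those terminals reduce glutamate release when bulb interneurons release GABA and dopamine. Fast GABA-A, AMPA and NMDA receptors are best known from postsynaptic sites of central neurons.

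Values are the deposited log2 numbers turned back to a linear scale. They behave as a per-length expression value, but the file does not name their unit. A gene was compared when 1 or both libraries gave it a value of 1 or more. It was counted as higher or lower in O/Tet3 when value + 1 differed at least 2-fold, which is a log2 ratio of at least 1 in size. As a check of the labels, Tet3 had a value of 145 in O/Tet3 and 3.72 in mOSN. All 8 markers of mature olfactory neurons were lower in O/Tet3, with mOSN values between 2.14-fold and 9.54-fold the O/Tet3 values, among them Omp at 139 in O/Tet3 and 298 in mOSN. Their summed value was 601 in O/Tet3 and 2693 in mOSN. The summed value of 7 immature neuron markers was 164 in O/Tet3 and 152 in mOSN, with 3 of the 7 higher in O/Tet3. In such bulk samples, fewer cells of a type and less RNA per cell cannot be told apart. The value that 1 read stands for was 1.89-fold larger in O/Tet3, so equal values stand for fewer reads in that library. For odorant receptor genes, which are short, 1 read was worth about 0.0503 in O/Tet3 and, through that ratio, 0.0266 in mOSN.

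Most receptor subunits had values below 1, and 4 genes made up most of the summed value. Of the 84 rows, 26 were listed at 0 in both libraries, 47 were above 0 in at least 1 library but below 1 in both, and 11 reached 1 in either and were compared. The compared share was 13.1% of the members and 37.4% of all rows. Of the 84, 44 (52.4%) were above 0 in O/Tet3 and 51 (60.7%) in mOSN, beside 56.1% of all rows in O/Tet3 and 61.3% in mOSN. Gabbr1, Gabbr2, Drd2 and P2rx4 held 69.2% of the summed value of all members in O/Tet3 and 89.8% in mOSN. That sum was 64.7 in O/Tet3 and 96.0 in mOSN. Among the 11 compared genes, 5 were higher in O/Tet3 (Gabre, Gabrq, Gria3, P2rx3 and P2rx6), 2 were lower (Gabbr1 and Drd2) and 4 were within 2-fold (Gabbr2, P2rx4, Chrnb2 and Grik5). Over all 12943 compared rows, 16.5% were higher and 12% were lower. The 5 higher genes were all below 1 in mOSN and were compared through O/Tet3 alone, so their direction followed from the floor. Rows compared in that way were higher by 2-fold in 52.4% of 1593 cases. The 6 members that reached 1 in each of the libraries held both lower genes and 0 higher ones. Among the 9934 rows that met this stricter floor, 13.1% were higher and 6.5% lower. The median log2 ratio was 0.11 over the 11 compared members and 0.21 over all compared rows.

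**Figure D1:**
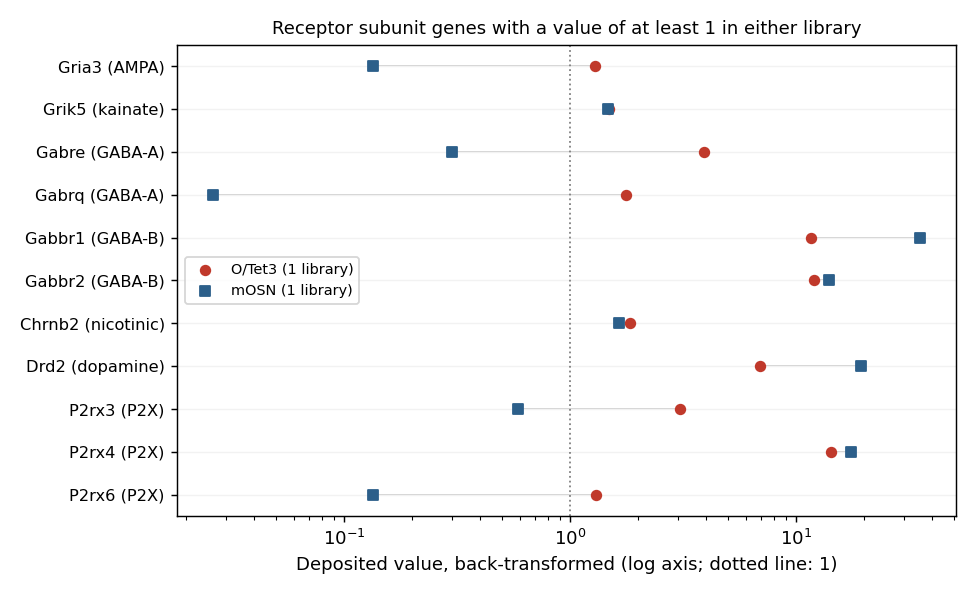
Values of the 11 receptor subunit genes that reached a value of 1 in O/Tet3, mOSN or both, on a log axis. Each gene has 1 circle for the O/Tet3 library and 1 square for the mOSN library, joined by a line. Gabbr1 and Drd2 lie to the left in O/Tet3, while Gabre, Gabrq, Gria3, P2rx3 and P2rx6 pass the dotted line at 1 in O/Tet3 alone.

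The genes of metabotropic receptors that act at olfactory axon terminals, Gabbr1, Gabbr2 and Drd2, were among the 4 highest members in both libraries. Gabbr1 and Drd2 were the only members counted as lower in O/Tet3. Among all rows, 12% were lower with a floor of 1 in either library and 6.5% with 1 in both. Gabbr1, which encodes the GABA-binding subunit of the GABA-B receptor, had a value of 11.7 in O/Tet3 and 35.4 in mOSN, a log2 ratio of −1.52. Gabbr2, which encodes the partner subunit that couples the receptor to G proteins, stayed close, at 11.9 in O/Tet3 and 14.03 in mOSN (log2 ratio −0.22). The GABA-B receptor works as a pair of these subunits. The Gabbr1 value was 0.978 times the Gabbr2 value in O/Tet3 and 2.52 times in mOSN, so the subunit transcripts differed unequally between the libraries. Drd2, the D2 dopamine receptor, was at 6.91 in O/Tet3 and 19.4 in mOSN (log2 ratio −1.37). The mOSN values of Gabbr1 and Drd2 were 3.03-fold and 2.81-fold the O/Tet3 values, within the 2.14-fold to 9.54-fold range of the mature neuron markers. Omp had the smallest fold of these markers, and the next smallest was Cnga4 at 3.08-fold, above Gabbr1 and Drd2. Relative to Omp in the same library, Gabbr1 stood at 8.39% in O/Tet3 and 11.9% in mOSN. Drd2 stood at 4.96% of Omp in O/Tet3 and 6.53% in mOSN. Gabbr2 stood at 8.57% of Omp in O/Tet3 and 4.71% in mOSN. Relative to any other marker of the list, all 3 genes stood higher in O/Tet3, so the direction for Gabbr1 and Drd2 depends on the marker. The part of the marker difference in these values was not tested. Drd3, Drd4 and Drd5, which encode the other dopamine receptors matched, were listed at 0 in both libraries.

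Gabbr1 and Drd2 are the lower genes and Gabre and Gabrq the higher genes with the largest ratios, so the promoters of these 4 genes are shown. Tet3 acts on methylated cytosines, which in most mammalian cells lie mainly in CG dinucleotides, and these are in capitals. Each window is the 250 bases before the annotated start, on the gene's strand, from RefSeq on build GRCm38.p6, which differs from the mm9 build of the deposited data. Gabbr1 lies on the plus strand at chr17:37045716-37045965, Drd2 on the plus strand at chr9:49340153-49340402, Gabre on the minus strand at chrX:72274722-72274971 and Gabrq on the plus strand at chrX:72824928-72825177.
Gabbr1: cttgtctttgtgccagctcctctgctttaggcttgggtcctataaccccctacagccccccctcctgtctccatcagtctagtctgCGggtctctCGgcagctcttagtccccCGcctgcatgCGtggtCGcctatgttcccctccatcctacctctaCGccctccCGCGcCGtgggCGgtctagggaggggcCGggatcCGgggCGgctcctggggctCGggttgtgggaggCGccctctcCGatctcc
Drd2: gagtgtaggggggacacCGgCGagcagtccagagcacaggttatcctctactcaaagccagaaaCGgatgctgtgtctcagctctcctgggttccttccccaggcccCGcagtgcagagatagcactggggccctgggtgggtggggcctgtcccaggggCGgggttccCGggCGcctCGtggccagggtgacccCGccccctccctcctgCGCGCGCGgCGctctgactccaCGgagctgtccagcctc
Gabre: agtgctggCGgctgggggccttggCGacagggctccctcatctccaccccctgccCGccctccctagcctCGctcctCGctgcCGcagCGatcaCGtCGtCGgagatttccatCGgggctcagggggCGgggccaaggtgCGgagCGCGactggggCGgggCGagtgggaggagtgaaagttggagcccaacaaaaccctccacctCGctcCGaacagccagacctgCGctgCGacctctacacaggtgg
Gabrq: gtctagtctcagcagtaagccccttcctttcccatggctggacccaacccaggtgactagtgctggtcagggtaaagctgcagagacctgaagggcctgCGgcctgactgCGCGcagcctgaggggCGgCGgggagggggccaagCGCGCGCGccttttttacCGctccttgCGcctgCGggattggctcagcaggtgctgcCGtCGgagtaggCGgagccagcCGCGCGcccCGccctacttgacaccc
The windows held 16 CG dinucleotides in Gabbr1, 15 in Drd2, 21 in Gabre and 19 in Gabrq. A CG reads the same on both strands, so each was counted once. The median was 6 over 32536 distinct promoter windows. At least as many as in Gabbr1 were found in 25.6% of all windows, as in Drd2 in 27.5%, as in Gabre in 16.5% and as in Gabrq in 19.9%. The lower and the higher pair thus both had more CG dinucleotides than the median window. Of the other compared genes with a window, Gabbr2 had 37, P2rx4 13, Chrnb2 10, Grik5 8 and P2rx6 3. Cytosine modification at these promoters was not analysed here.

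**Figure D2:**
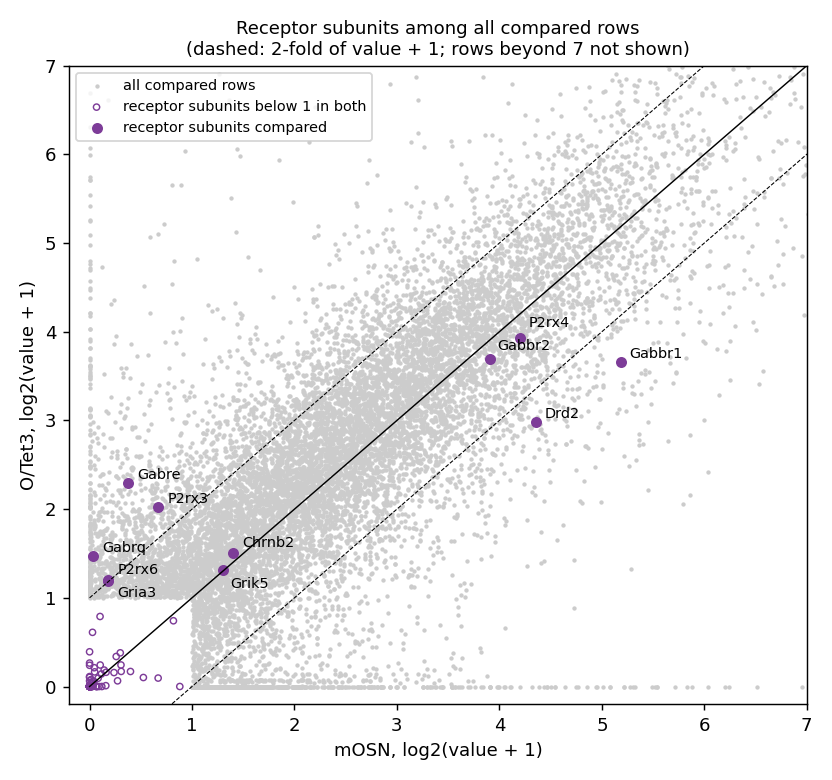
Log2(value + 1) in the O/Tet3 library against the mOSN library for all compared rows up to 7 on both axes (grey) and for the receptor subunits (purple, with names for the 11 compared). Gabbr1 and Drd2 lie below the lower dashed line, which marks 2-fold of value + 1, and most members cluster near the origin, below 1 in both libraries.

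Among the P2X receptors, channels opened by extracellular ATP, the most abundant member stayed close while the values of 2 low members were higher in O/Tet3. P2rx4 was at 14.3 in O/Tet3 and 17.4 in mOSN (log2 ratio −0.27), and it was the highest of all 84 members in O/Tet3 and the third highest in mOSN. Its row overlaps Camkk2, which was at 3.13 in O/Tet3 and 3.51 in mOSN, and overlapping reads could not be separated. P2rx3, known from pain-sensing and taste-related sensory neurons, was at 3.07 in O/Tet3 and 0.590 in mOSN (log2 ratio 1.36). P2rx6, a subunit that forms channels mainly together with other P2X subunits, was at 1.30 in O/Tet3 and 0.134 in mOSN (log2 ratio 1.02, or 0.82 when ratios are centred on the median of all rows, which is below the 2-fold line). P2rx4 exceeded P2rx3 4.64-fold in O/Tet3 and 29.5-fold in mOSN. The summed P2X value was 18.8 in O/Tet3 and 18.1 in mOSN. P2rx7, the neighbour of P2rx4, was at 0.0742 in O/Tet3 and listed at 0 in mOSN, P2rx5 was at 0.0528 in O/Tet3 and 0.00934 in mOSN, and P2rx1 was listed at 0 in O/Tet3 and at 0.0127 in mOSN. P2rx2 was listed at 0 in both.

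The GABA-A family, chloride channels built from 5 subunits of several classes, had a summed value of 7.55 in O/Tet3 and 1.52 in mOSN, and different subunits made up most of it in each library. Gabre, the epsilon subunit, was at 3.92 in O/Tet3 and 0.301 in mOSN (log2 ratio 1.92), the highest ratio of the compared members. Gabrq, the theta subunit, was at 1.77 in O/Tet3 and 0.0263 in mOSN (log2 ratio 1.43). The mOSN value of Gabrq is low and the number of reads behind it is not known, so no fold is given. Of the 6 alpha subunit genes, which most GABA-A channels require, Gabra3 was at 0.728 in O/Tet3 and 0.0733 in mOSN, and Gabra4 was at 0.00994 in O/Tet3 and listed at 0 in mOSN. Gabra2, Gabra5 and Gabra6 were listed at 0 in both. Gabrb2, a beta subunit, went the other way, listed at 0 in O/Tet3 and at 0.841 in mOSN. Gabrb1 was at 0.0807 in O/Tet3 and listed at 0 in mOSN. The gamma subunits, common in synaptic receptors, were near 0, with Gabrg3 at 0.0123 in O/Tet3 and 0.00218 in mOSN and Gabrg1 listed at 0 in both. The rho subunit Gabrr1 was at 0.527 in O/Tet3 and 0.0200 in mOSN, Gabrr3 was at 0.180 and Gabrd, the delta subunit, at 0.201 in O/Tet3, and both were listed at 0 in mOSN. Gabrr2 was listed at 0 in both, and Gabrp, the pi subunit, was listed at 0 in O/Tet3 and at 0.0134 in mOSN. The compared GABA-A genes were thus the epsilon and theta subunits alone. Both were compared through O/Tet3 alone, so their direction followed from the floor. Every GABA-A value in mOSN was below 1, the highest being 0.841 for Gabrb2. The precision of such low values is unknown, so the family sums are not comparable as levels of expression.

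Gabre, Gabra3 and Gabrq lie in one stretch of chromosome X, with the odorant transduction channel gene Cnga2 before them in the order of RefSeq genes. Cnga2 was lower in O/Tet3, at 37.9 against 238 in mOSN. Of the rows between them, the pseudogene Gm14735 was at 3.17 in O/Tet3 and 4.12 in mOSN, and Magea4, Magea10 and 4 microRNA rows were listed at 0 in both. Past Gabrq, Cetn2 was at 48.3 in O/Tet3 and 32.9 in mOSN, and Nsdhl at 5.27 in O/Tet3 and 2.66 in mOSN. Zfp185, below the floor, was at 0.420 in O/Tet3 and 0.0124 in mOSN. These rows were looked at after the values of the subunits had been seen. The stretch therefore held rows of both directions.

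**Figure D3:**
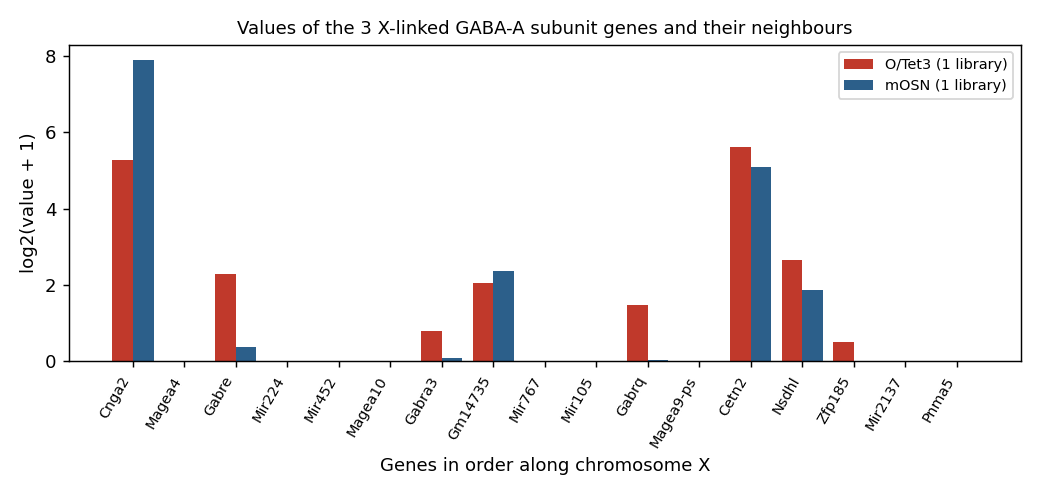
Log2(value + 1) of Gabre, Gabra3, Gabrq and their neighbours in gene order along chromosome X, with the O/Tet3 library in red and the mOSN library in blue, 1 bar per library. The 3 GABA-A subunit genes have taller O/Tet3 bars, and Cnga2 has a taller mOSN bar.

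Of the 84 members, 6 are on chromosome X, and 5 of them (Gabre, Gabrq, Gabra3, Gria3 and Glra4) had a higher value in O/Tet3, while Glra2 was listed at 0 in both. Of the 78 members elsewhere, 24 had a higher and 29 a lower value in O/Tet3, and 25 were listed at 0 in both. These counts take a difference of any size, and the same count over all X rows was not made. Gabra3 and Glra4 were below the floor. Gabre, Gabrq and Gria3 were compared through O/Tet3 alone, so their direction followed from the floor. The grouping by chromosome was made after the values had been seen. Among 411 compared rows assigned to X, 22.9% were higher by 2-fold and 5.84% lower, beside 16.5% and 12% of all compared rows. Xist, transcribed from the inactive X of female cells, was at 5.79 in O/Tet3 and 0.0137 in mOSN. The sex of the mice is not in the labels, and the part of Xist and sex in the X-linked and other values was not tested.

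Ionotropic glutamate receptor genes were low in both libraries. Gria3, an AMPA receptor subunit, was at 1.28 in O/Tet3 and 0.135 in mOSN (log2 ratio 1.01, or 0.80 when centred, below the 2-fold line). Gria2, whose subunit keeps most AMPA channels closed to calcium, was listed at 0 in O/Tet3 and at 0.0188 in mOSN, Gria4 was listed at 0 in O/Tet3 and at 0.0862 in mOSN, and Gria1 was listed at 0 in both. Grik5, a kainate receptor subunit that needs another kainate subunit to form a channel, was at 1.49 in O/Tet3 and 1.47 in mOSN (log2 ratio 0.01). The Grik5 row overlaps Zfp574, at 0.459 in O/Tet3 and 0.607 in mOSN, so part of its reads may be shared. Among the possible partners of Grik5, Grik2 was at 0.183 in O/Tet3 and 0.0746 in mOSN. Grik3 was at 0.137 in O/Tet3 and 0.104 in mOSN, and Grik1 was listed at 0 in both. Grik4, which also needs a partner, was at 0.0413 in O/Tet3 and 0.0292 in mOSN. None of the 7 NMDA receptor genes reached 0.3 in either library. Grin1, the subunit that every NMDA receptor contains, was listed at 0 in O/Tet3 and at 0.0495 in mOSN. The highest NMDA genes were Grin3a, at 0.183 in O/Tet3 and 0.237 in mOSN, and Grin3b, at 0.264 in O/Tet3 and 0.197 in mOSN. The delta receptor gene Grid1 was at 0.115 in O/Tet3 and 0.179 in mOSN.

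Metabotropic glutamate and muscarinic receptors, which are G protein-coupled, were all below 1. Grm3, which lowers cAMP through inhibitory G proteins, was at 0.0681 in O/Tet3 and 0.590 in mOSN. Grm8, a presynaptic receptor of the same signalling type, was at 0.0728 in O/Tet3 and 0.439 in mOSN. The values of both were thus lower in O/Tet3, but below the floor for a comparison. Grm6, best known from retinal bipolar cells, was at 0.158 in O/Tet3 and 0.0319 in mOSN. Grm4 and Grm5 were listed at 0 in O/Tet3 and below 0.01 in mOSN, and Grm2 and Grm7 were listed at 0 in both. Of the muscarinic acetylcholine receptors, Chrm4 was at 0.0453 in O/Tet3 and 0.208 in mOSN, and Chrm1 at 0.00645 in O/Tet3 and 0.116 in mOSN. Chrm2 was listed at 0 in O/Tet3 and at 0.0144 in mOSN. Chrm3, which has been described in olfactory sensory neurons as a partner of odorant receptors, was listed at 0 in both libraries, as was Chrm5. An exact 0 in such a table can be a failed estimate, so it does not show that a gene is silent.

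The nicotinic acetylcholine receptor genes were mostly near 0, and the 3 highest were at similar values in both libraries. Chrnb2, a beta subunit of neuronal nicotinic receptors, was at 1.85 in O/Tet3 and 1.65 in mOSN (log2 ratio 0.11). Its row overlaps Adar, at 6.35 in O/Tet3 and 4.65 in mOSN, so part of its reads may be shared. Chrnb1, best known as the beta subunit of the muscle receptor, was at 0.672 in O/Tet3 and 0.763 in mOSN. Chrna10, known from cochlear hair cells, was at 0.301 in O/Tet3 and 0.231 in mOSN. Of the neuronal alpha subunits, Chrna3, Chrna4 and Chrna6 were listed at 0 in both libraries, Chrna7 was at 0.0455 in O/Tet3 and listed at 0 in mOSN, and Chrna5 was listed at 0 in O/Tet3 and at 0.0656 in mOSN. Chrna2 was at 0.0234 in O/Tet3 and 0.0186 in mOSN. The remaining rows, Chrna1, Chrna9, Chrnb3, Chrnb4, Chrnd, Chrne and Chrng, reached at most 0.121 in O/Tet3 and 0.0456 in mOSN. Among the glycine receptor genes, the beta subunit Glrb was at 0.125 in O/Tet3 and 0.319 in mOSN. The alpha subunit Glra4 was at 0.312 in O/Tet3 and listed at 0 in mOSN, and Glra3 was listed at 0 in O/Tet3 and at 0.00610 in mOSN. Glra1 and Glra2 were listed at 0 in both.

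**Figure D4:**
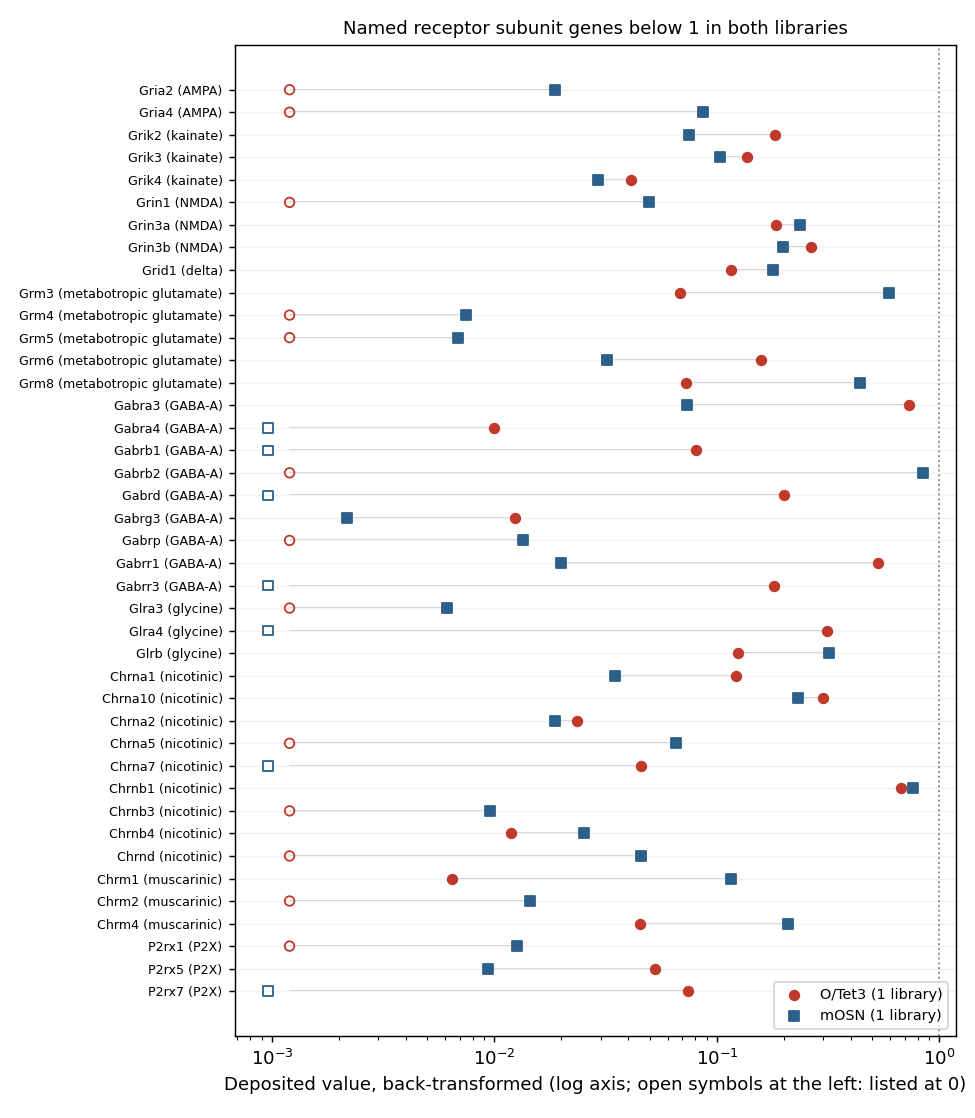
Values of the named receptor subunit genes below 1 in both libraries and above 0 in at least 1, on a log axis, with circles for the O/Tet3 library and squares for the mOSN library. Open symbols at the left edge mark genes listed at 0 in that library. Gabra3, Gabrr1 and Glra4 lie to the right in O/Tet3, and Grm3, Grm8, Gabrb2 and the muscarinic genes in mOSN.

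Below the floor, values above 0 had a median of 0.115 in O/Tet3 (33 genes) and 0.0552 in mOSN (40 genes). The highest were 0.728 for Gabra3 in O/Tet3 and 0.841 for Gabrb2 in mOSN. Of these 73 genes, 18 reached 0.1 in O/Tet3 and 14 in mOSN. A low gene needs a larger value to be detected in O/Tet3, where 1 read is worth more, so these counts and medians are not comparable as levels of expression.

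Genes that load, make and clear transmitters were looked at as a related list. Of 11 compared genes of transmitter synthesis, loading and uptake, 1 was higher and 2 were lower in O/Tet3, with a median log2 ratio of −0.03, beside 16.5% higher and 12% lower among all compared rows. Slc17a6, which loads glutamate into synaptic vesicles of olfactory neurons, stayed close, at 29.4 in O/Tet3 and 34.4 in mOSN. Slc1a2, a glutamate uptake transporter, was at 10.8 in O/Tet3 and 94.3 in mOSN (log2 ratio −3.02). Glul, which turns glutamate into glutamine, was at 12.9 in O/Tet3 and 42.7 in mOSN (log2 ratio −1.65). Both are known chiefly from supporting cells and glia in the brain. The higher gene was Slc18a1, a vesicular monoamine transporter, at 1.03 in O/Tet3 and listed at 0 in mOSN. It was just above the floor and compared through O/Tet3 alone, so its direction followed from the floor. The summed value of 6 sustentacular (supporting) cell markers was 8.83 in O/Tet3 and 25.0 in mOSN, and that of 5 olfactory ensheathing glia markers was 1.57 in O/Tet3 and 7.39 in mOSN. In O/Tet3, Cyp1a2 of the first list and S100b and Sox10 of the second were listed at 0. Their part in the values of Slc1a2 and Glul was not tested.

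Several proteins that bind and anchor glutamate receptors had higher values than any glutamate receptor gene. Of 19 compared partners and scaffolds, 6 were lower in O/Tet3 and 0 higher, with a median log2 ratio of −0.65, beside 12% of all compared rows lower and a median of 0.21. Cacng4 among the lower genes, and Cnih2 and Gsg1l within 2-fold of value + 1, were compared through mOSN alone, so their direction followed from the floor. Cnih2 was at 0.656 in O/Tet3 and 1.60 in mOSN, and Gsg1l at 0.136 in O/Tet3 and 1.13 in mOSN. The median is the ratio of Cnih2. Of all 1416 rows compared through mOSN alone, 906 were lower by 2-fold. The scaffold Homer2, which links metabotropic glutamate receptors to calcium stores, was at 11.3 in O/Tet3 and 30.0 in mOSN (log2 ratio −1.33). Cacng4, an auxiliary subunit of AMPA receptors, was at 0.590 in O/Tet3 and 2.94 in mOSN, and Nptx2, a secreted pentraxin that clusters AMPA receptors, at 5.40 in O/Tet3 and 14.7 in mOSN. Of the postsynaptic density scaffolds, Shank2 was at 1.78 in O/Tet3 and 5.65 in mOSN, Dlgap3 at 2.52 in O/Tet3 and 6.56 in mOSN, and Dlg2 at 10.8 in O/Tet3 and 23.9 in mOSN. Dlg4, also called PSD-95, was within 2-fold, at 27.3 in O/Tet3 and 23.1 in mOSN. Dlg1 was the highest scaffold, at 47.2 in O/Tet3 and 60.5 in mOSN.

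Of 13 compared partners of GABA-A, glycine and nicotinic receptors, 2 were higher and 1 lower in O/Tet3 (median log2 ratio −0.03), beside the same 16.5% and 12% of all compared rows. Gphn, encoding gephyrin, the scaffold of glycine and GABA-A receptors, was at 1.98 in O/Tet3 and 5.72 in mOSN (log2 ratio −1.17). Ly6h, a membrane-anchored protein that modulates nicotinic receptors, was at 14.9 in O/Tet3 and 0.755 in mOSN (log2 ratio 3.18). It was compared through O/Tet3 alone, so its direction, though not its size, followed from the floor. Kctd16, an auxiliary subunit of GABA-B receptors, was at 9.60 in O/Tet3 and 9.86 in mOSN. Ric3, a chaperone of nicotinic receptors, was at 11.9 in O/Tet3 and 15.3 in mOSN, above every nicotinic subunit gene in both libraries.

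**Figure D5:**
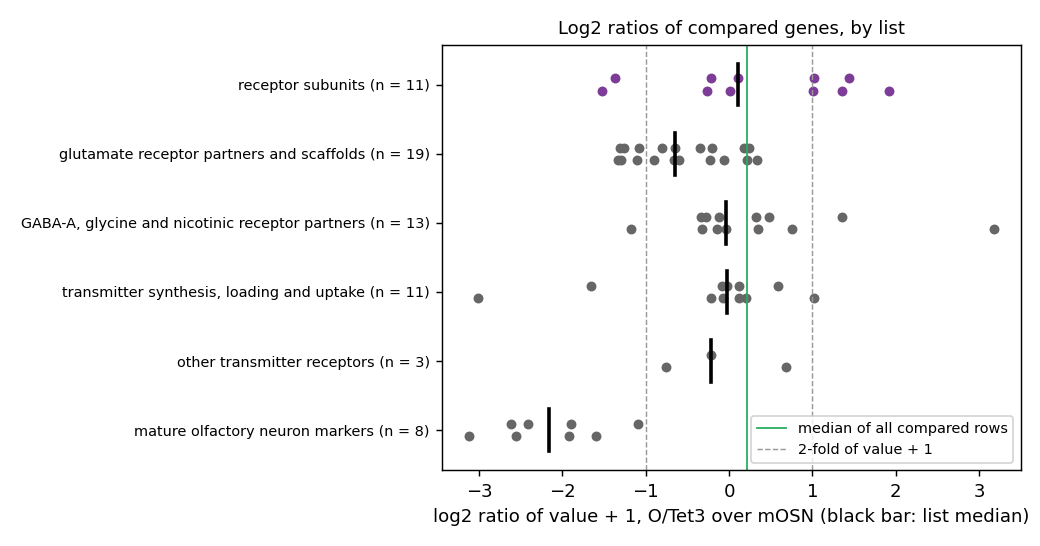
Log2 ratios of value + 1, O/Tet3 over mOSN, for compared genes of the receptor subunits, 4 lists of related genes and the mature olfactory neuron markers, 1 point per gene, with a black bar at each list's median and a green line at the median of all compared rows, 0.21. The receptor subunits spread from −1.52 to 1.92, and the 8 neuron markers all lie beyond −1.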

How the data were processed

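Sorted-cell RNA was depleted of ribosomal RNA (RiboMinus) and made into libraries with the ScriptSeq kit, per the labels' protocols. Bowtie, Bowtie2, Cuffdiff and build mm9 are listed in the submitters' processing notes. Annotation and strand setting are not given in the sources used here. The authors deposited 1 log2 value per gene and library and the log2 ratio, which equals O/Tet3 minus mOSN within 8e-14. The deposited log2 values are log2(value + 1), found from the file: the lowest is 0, and the linear values were rounded here to 6 significant digits. No linear unit is named. Among pseudogene rows, the lowest decile of mOSN values above 0 ended at 0.0936 for gene lengths of 300 to 600 bases and 0.0441 for 600 to 1200, so values fall with length. Columns were assigned by name. The value of 1 read in O/Tet3 relative to mOSN was taken as the most frequent ratio of 3757 low rows.

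Log2 ratios use a pseudocount of 1, a floor of 1 in either library and a 2-fold threshold. All members reaching the floor are named, and of related lists those past 2-fold that are reported, with further members named after their values were seen. The members and lists were chosen with earlier results of these data known. Gene names and chromosomes came from RefSeq tables (GRCm38.p6). A chromosome was found for 73.9% of rows and all 84 members, and a promoter window for 60 members. With 1 library per group no test was made. The 5-hydroxymethylcytosine sample was not analysed here. Some members and list genes are counted but not reported here by name. The counting step was tested on simulated data, built from rows well above the floor in both libraries with large planted differences. That test does not cover values near the floor or ratios near the threshold. Python 3.11.15, pandas 2.3.3 and matplotlib 3.10.9 were used.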

Additional observations from a re-analysis of the deposited data

How the results depend on the processing

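The floor of 1 in both libraries was chosen after seeing the data. The 5 higher members became 0 with a floor of 5, 2 with a floor of 1 on the mean of the libraries, 3 when ratios were centred on all rows, 1 at 3-fold and 0 with at least 1 in both libraries. A stricter floor or fold counts fewer genes by construction. The 2 lower members became 0 at 3-fold and stayed 2 under the other 7 settings. The median log2 ratio of 0.11 became 0.0031 with no floor, −0.82 with a floor of 5, −0.10 with a floor of 1 on the mean, −0.10 centred and −0.24 with at least 1 in both libraries, so its sign depends on these choices. Centring subtracts 0.21 from each ratio, which took Gria3 to 0.80 and P2rx6 to 0.82, below the 2-fold line, and turned Chrnb2 to −0.10 and Grik5 to −0.20. The other 7 compared members, and all 11 with a pseudocount of 0.1, kept direction and side of the threshold. Apart from floor, fold and centring as such, the cause was not tested. Read counts are not in the file, so the precision of low values is unknown. No paired analysis was possible because there is only 1 library in each group.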

Other observations

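Other transmitter receptors were also rare. Of 55 genes for serotonin, adrenaline, adenosine, nucleotide, histamine, opioid, cannabinoid, neuropeptide Y, somatostatin and tachykinin receptors, 3 reached a value of 1 in either library and 18 were listed at 0 in both. P2ry14, a receptor for UDP-glucose, was at 1.56 in O/Tet3 and 3.34 in mOSN. The serotonin receptor Htr2b was at 1.59 in O/Tet3 and 2.01 in mOSN. Cnr1, the neuronal cannabinoid receptor, was at 2.33 in O/Tet3 and 1.08 in mOSN. All 3 were within 2-fold of value + 1. Hdc, which makes histamine, was at 11.1 in O/Tet3 and 9.46 in mOSN.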
